A study of Mus musculus with 153 samples.

Results

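The 26S proteasome is the large protease that degrades proteins tagged with ubiquitin. Its genes are described here at the level of RNA in 3 classes of hippocampal neuron. The members are all gene symbols in the deposited count tables that begin with Psma, Psmb, Psmc, Psmd, Psme, Psmf or Psmg followed by a number, except Psmb8 and Psmb9. They came to 47 of the 25103 symbols listed in at least 1 table. By textbook role, 15 encode the core particle (8 alpha-ring and 7 beta-ring genes), 17 the cap or regulatory particle (6 ATPases, 3 other base subunits and 8 lid subunits), 7 assembly chaperones, 6 activators and related regulators, and 2 beta subunits of particular tissues, Psmb10 and Psmb11. Psme2b was not listed in the Camk2a 15 min table, which held 46 members.

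The core is a barrel of stacked rings: alpha rings close its ends, and inside the beta rings Psmb5, Psmb6 and Psmb7 supply the chymotrypsin-like, caspase-like and trypsin-like cutting sites. The cap sits on the barrel, where its lid removes ubiquitin and its ring of ATPases unfolds the substrate and threads it in. Other activators, made from Psme genes, can take the place of the cap and open the barrel without the use of ATP. In neurons, protein breakdown by the proteasome is known to take part in synaptic plasticity and in the formation of memory, alongside protein synthesis.

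The libraries come from mouse dorsal hippocampus. RNA bound to ribosomes was purified from genetically marked neurons (translating ribosome affinity purification, TRAP), and RNA of the whole tissue lysate was sequenced beside it. The genotypes were Camk2a.Cre/TRAPfl, Pvalb.Cre/TRAPfl and Sst.Cre/TRAPfl. Every group carried the TRAPfl allele and 1 Cre driver, so the purified class depends on the cells in which the Camk2a, Pvalb or Sst driver is active, and no line without Cre was included. Shock mice were conditioned with a shock in a new context (labelled Conditioned), box mice met the new context without shock (labelled Box control), and home cage mice stayed in the home cage. Each line had a 15 min and a 60 min set, with shock, box and home cage groups of both fractions in each set, which gave 36 groups of 3 to 6 libraries. The labels give no age or sex and name no animals, and the series' design text calls the samples biological replicates. In all, 151 libraries were analysed, with total counts of 9043042 to 397228206.

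Own-class markers were checked with a score, the mean log2 CPM (counts of a gene scaled to a common library total) of the neuron class minus the mean of lists for other cell classes. The purified Camk2a libraries scored 4.56 to 6.14 in the 15 min set and 5.20 to 6.73 in the 60 min set, all above Camk2a lysates. The purified Pvalb libraries scored -0.28 to 3.21 and 1.51 to 2.83, all above Pvalb lysates. Purified Sst libraries ran from -4.84 to 3.61 in the 15 min set and from -3.51 to 2.33 in the 60 min set. In 12 of the purified Sst libraries the score was below 0, and all 4 Sst 60 min shock libraries were among them. Those 4 libraries had 117 to 405 CPM summed over 5 listed somatostatin markers, against 2065 to 9697 CPM in the 4 box libraries, so they do not match their label well. All results on the Sst line below rest in part on such libraries. In tissue RNA and purified RNA alike, fewer cells of a type and less RNA per cell cannot be told apart.

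The coding ends of 6 members are printed because the shock response of the members, given further on, ran with base composition. These 6 were picked with the fold changes known, so the contrast in their G and C is no support for that trend. Members of less extreme GC content over the longest transcript also changed, such as Psmg3 (higher, 50.44%) and Psmd6 (lower, 47.08%). Over the coding sequence Psmg3 holds 55.2% and Psmd6 46.7%. The trend further on uses the longest transcript, not the printed stretches. Each line holds the last 150 coding bases before the stop codon of the longest annotated coding sequence, 5′ to 3′ on the strand of the gene, with G and C in capitals, from the GENCODE M21 annotation on GRCm38. Psmc6, an ATPase, lies at chr14:45346782-45348698 (plus strand); Psma3, an alpha-ring subunit, at chr12:70993038-70994392 (plus strand); and Psmd14, the lid enzyme that removes ubiquitin chains, at chr2:61797404-61800077 (plus strand). These 3 were lower after shock in purified Pvalb RNA of the 60 min set, and their stretches hold 46%, 38% and 40% G or C.
Psmc6: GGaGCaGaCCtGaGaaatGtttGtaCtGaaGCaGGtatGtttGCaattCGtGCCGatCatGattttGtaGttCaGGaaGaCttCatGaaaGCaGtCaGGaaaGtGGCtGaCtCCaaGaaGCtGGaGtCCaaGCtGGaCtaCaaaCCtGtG
Psma3: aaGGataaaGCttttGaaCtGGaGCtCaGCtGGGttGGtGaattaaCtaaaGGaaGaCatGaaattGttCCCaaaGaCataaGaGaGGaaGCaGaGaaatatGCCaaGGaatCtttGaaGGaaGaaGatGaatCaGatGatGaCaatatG
Psmd14: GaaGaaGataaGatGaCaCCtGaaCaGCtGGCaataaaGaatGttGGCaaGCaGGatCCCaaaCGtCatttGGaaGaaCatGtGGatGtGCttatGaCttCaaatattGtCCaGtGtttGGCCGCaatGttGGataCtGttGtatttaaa
Psmb5, the chymotrypsin-like beta subunit, lies at chr14:54614195-54614344 (minus strand); Psmb10, the immunoproteasome form of the trypsin-like beta subunit, at chr8:105935797-105936036 (minus strand); and Psmd3, a lid subunit, at chr11:98694270-98695597 (plus strand). These 3 were higher, and their stretches hold 57.3%, 59.3% and 58.7% G or C. A range that is longer than its sequence spans at least 1 intron.
Psmb5: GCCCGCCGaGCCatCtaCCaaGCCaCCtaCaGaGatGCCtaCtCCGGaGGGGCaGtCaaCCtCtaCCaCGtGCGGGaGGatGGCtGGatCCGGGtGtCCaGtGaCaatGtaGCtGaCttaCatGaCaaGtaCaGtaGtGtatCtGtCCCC
Psmb10: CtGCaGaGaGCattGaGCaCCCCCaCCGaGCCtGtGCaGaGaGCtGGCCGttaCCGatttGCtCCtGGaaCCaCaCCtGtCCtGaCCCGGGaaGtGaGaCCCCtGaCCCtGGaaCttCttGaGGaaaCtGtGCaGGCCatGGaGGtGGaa
Psmd3: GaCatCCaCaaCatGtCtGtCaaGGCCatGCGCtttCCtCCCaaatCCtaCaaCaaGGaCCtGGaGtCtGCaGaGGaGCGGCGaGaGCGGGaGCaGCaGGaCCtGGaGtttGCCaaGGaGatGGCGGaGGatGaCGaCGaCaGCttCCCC

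All members except Psma8 and Psmb11 were detected in every library whose table listed them. Levels between genes are compared per length, as the median CPM per kilobase of annotated exon over the purified and over the lysate libraries. The highest members in both fractions were the ATPase Psmc5, at 317.5 CPM per kilobase in purified and 252 CPM per kilobase in lysate RNA, and the beta subunit Psmb6, at 291 and 184 CPM per kilobase in purified and lysate RNA. Next in purified RNA was Psmb5, with 206 CPM per kilobase in purified and 142 CPM per kilobase in lysate RNA. Next in lysate RNA was the structural beta subunit Psmb2, with 181 CPM per kilobase in purified and 157 CPM per kilobase in lysate RNA. In the alpha ring the highest was Psma6, at 155 CPM per kilobase in purified and 137 CPM per kilobase in lysate RNA. Among the low members were the base chaperone Psmd5 (6.11 CPM per kilobase in purified, 12.1 CPM per kilobase in lysate RNA), the regulator Psmf1 (6.66 in purified, 7.39 in lysate RNA) and the large activator Psme4 (1.83 in purified, 2.44 in lysate RNA). Psme2b stood at 3.09 CPM per kilobase in purified and 2.43 CPM per kilobase in lysate RNA; it is a near copy of Psme2, and how reads fitting both were counted is not given, so both are uncertain. Lengths count every annotated exon, so genes with long rare exons, such as Psmd9 with 7248 bases, read low.

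The testis-type alpha subunit Psma8 and the thymus-type beta subunit Psmb11 were near 0. Psma8 never exceeded 5.32 CPM. In the Camk2a 60 min table it summed to 2 counts over 12 purified libraries, 11 of which were at 0, against 225 counts over 12 lysate libraries. Fitted fold changes of Psma8 and Psmb11 are not given, although both stay in the counts of members tested.

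Summed over all members, proteasome transcripts made up a larger part of purified than of lysate RNA. In the Camk2a 60 min table the sum was 7486 ± 694 CPM in purified RNA and 6283 ± 445 CPM in lysates (SD, n = 12 each). In the Sst 15 min table it was 7341 ± 1145 CPM in purified RNA and 5764 ± 409 CPM in lysates (SD, n = 12 each). The purified mean was above the lysate mean in all 6 tables, with the smallest gap in the Pvalb 15 min table, at 7111 ± 523 CPM in 13 purified and 6389 ± 403 CPM in 12 lysate libraries. The sum over core genes was higher in purified RNA in every table, while the sum over cap genes was lower in purified RNA in 3. In the Camk2a 15 min table core genes summed to 3839 ± 483 CPM in purified and 2626 ± 199 CPM in lysate RNA, and cap genes to 2632 ± 353 CPM in purified and 2784 ± 201 CPM in lysate RNA (SD, n = 10 each). Cap sums averaged 2892 CPM in purified and 3104 CPM in lysate RNA of Pvalb 15 min, 2939 and 3079 CPM in purified and lysate RNA of Pvalb 60 min, and 3186 and 3161 CPM in purified and lysate RNA of Camk2a 60 min. The ratio of summed core to summed cap CPM averaged 1.46 ± 0.06 in purified and 0.944 ± 0.041 in lysate RNA of the Camk2a 15 min table (SD, n = 10 each). It averaged 1.22 ± 0.09 in purified (n = 13) and 0.845 ± 0.048 in lysate RNA (n = 12) of the Pvalb 15 min table, and 1.15 ± 0.08 in purified and 0.740 ± 0.031 in lysate RNA of the Sst 15 min table (n = 12 each).

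**Figure D1:**
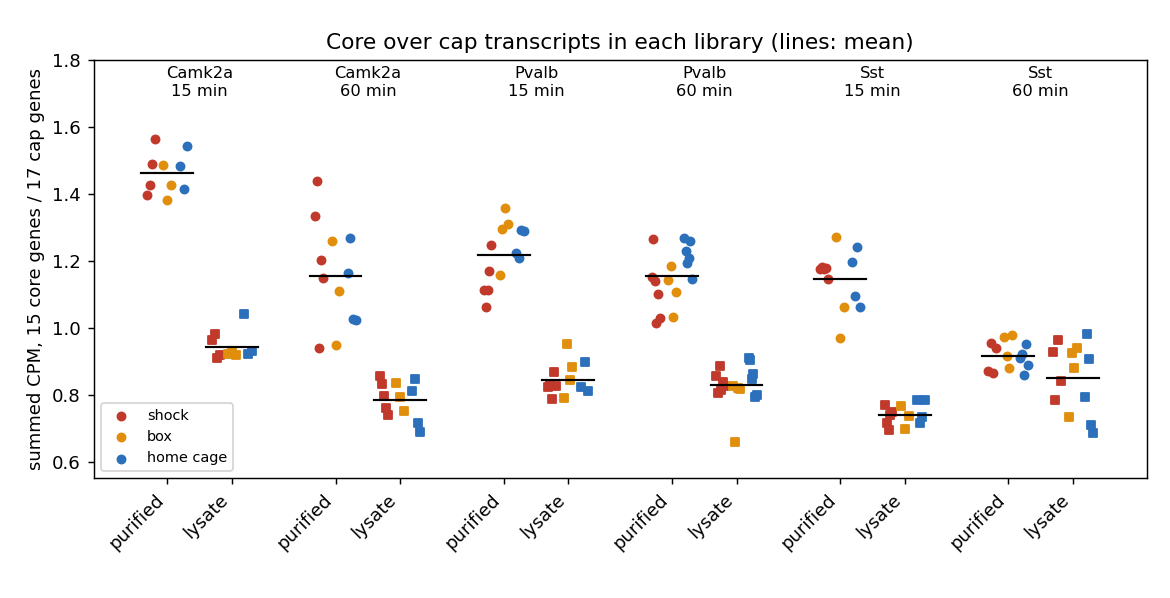
Ratio of the summed CPM of 15 core genes to that of 17 cap genes in each of the 151 libraries, by table and fraction, with purified libraries (circles) left of lysates (squares), colours for shock, box and home cage, and a line at each mean. In 5 tables every purified library lies above every lysate; in the Sst 60 min table, with means of 0.916 in purified and 0.851 in lysate RNA, the 2 fractions overlap.

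The plot of the core-to-cap ratio shows no overlap of the fractions in 5 tables. In the Camk2a 60 min table purified libraries ran from 0.939 to 1.44 and lysates from 0.689 to 0.855, and in the Pvalb 60 min table from 1.01 to 1.27 and lysates from 0.658 to 0.910. The Sst 60 min table differed: purified libraries ran from 0.858 to 0.979 and lysates from 0.686 to 0.980. These ratios are descriptions with no test, and CPM carry over differences in what else each library holds.

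Gene by gene, most members were higher in purified than in lysate RNA. The comparison used edgeR's quasi-likelihood test with TMM scaling on each table, fitted over all genes, with adjusted p under 0.05 as the call. It set the mean of the purified groups against the mean of the lysate groups, over shock, box and home cage. A member called higher need not be higher in each condition. In the Camk2a line 28 members were higher and 5 lower of 46 tested at 15 min, and 30 higher and 5 lower of 47 at 60 min. In the Pvalb line 27 were higher and 3 lower at 15 min, and 32 higher and 4 lower at 60 min, of 47 each. In the Sst line 37 were higher and 1 lower at 15 min, and 24 higher and 12 lower at 60 min, of 47 each. Among all genes tested, 50.7%, 57.5%, 45.6%, 60.4%, 44.5% and 59.4% passed in the same order, so that a call by itself was common. Those higher made up 22.9%, 22.2%, 21.3%, 28%, 23.6% and 31.2% of all genes, and those lower 27.8%, 35.3%, 24.3%, 32.4%, 21% and 28.2%. The median member fold change was 0.61, 0.49, 0.39, 0.39, 0.75 and 0.28 on the log2 scale, against -0.14, -0.26, -0.15, -0.13, -0.05 and 0.11 over all genes.

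The split depends on the scaling. With library totals in place of TMM factors, an alternative added after seeing the data, the median fold change of all genes moved by -0.35 and -0.29 in the Camk2a tables, -0.24 and -0.28 in the Pvalb tables, and -0.41 and -0.02 in the Sst tables (15 min and 60 min). The members then split into 22 higher and 10 lower and 19 higher and 10 lower for Camk2a, 18 and 10 and 22 and 11 for Pvalb, and 23 and 4 and 22 and 12 for Sst, higher and lower each time. Of all genes, 11.8% and 13.1% were then higher for Camk2a, 14.9% and 19.2% for Pvalb and 11.9% and 27.7% for Sst, and 43.5% and 48.8%, 34% and 44.5%, and 37.1% and 28.1% were lower. The members' median fold change was then 0.26 and 0.20 for Camk2a, 0.14 and 0.11 for Pvalb and 0.34 and 0.23 for Sst, so it stayed above the median of all genes in each table. Members called with TMM scaling that turned sign with library totals, without passing there, were Psmd13 in Camk2a 15 min, Psmc2 in Camk2a 60 min, Psma7 in Pvalb 15 min, Psmd1 in Pvalb 60 min and Psmc1, Psmc2, Psmd9 and Psmd13 in Sst 15 min.

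**Figure D2:**
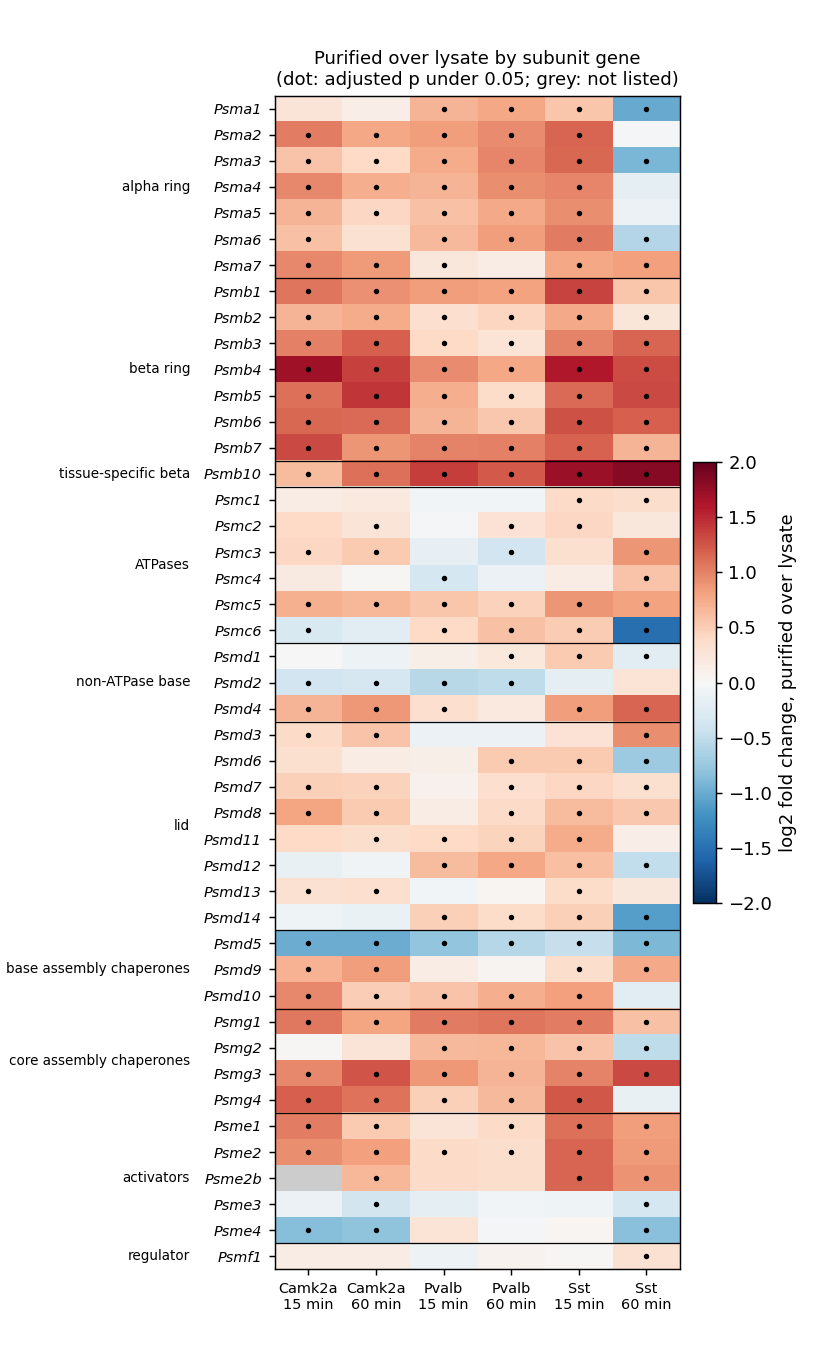
Log2 fold change of purified over lysate RNA for 45 members in the 6 tables (edgeR, TMM scaling), red for higher and blue for lower in purified RNA, a dot for an adjusted p under 0.05 and grey where the gene was not listed. The beta ring is red throughout, Psmd5 is blue throughout, and the Sst 60 min column holds blue alpha-ring genes (Psma1, Psma3 and Psma6) that are above 0 in the other columns, and the ATPase gene Psmc6 at its lowest, which is also blue in the Camk2a columns.

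The beta ring was the most uniform group in the map of fold changes. Averaged over conditions, all 7 beta-ring genes were higher in purified RNA in all 6 tables. With library totals 5 of 7 passed in the 2 Pvalb tables, and 7 of 7 in the other 4. In the Pvalb tables Psmb2 and Psmb3 did not pass at 15 min, nor did Psmb3 and Psmb5 at 60 min. With GC and length offsets the call was lost for Psmb2 in Pvalb 15 min (0.09, edgeR adjusted p = 0.253) and Sst 60 min (0.07, edgeR adjusted p = 0.572) and for Psmb3 in Pvalb 60 min (0.12, edgeR adjusted p = 0.256). Psmb4, a structural beta subunit on chr3:94884093-94886961, had the largest median change of the ring. Its lowest, median and highest values were 155, 241 and 381 CPM in purified and 82.2, 95.5 and 128 CPM in lysate RNA of the Camk2a 15 min table, with no overlap. The log2 fold changes of Psmb4 were 1.70 ± 0.16 (SE) for Camk2a 15 min, 1.37 ± 0.12 for Camk2a 60 min, 0.95 ± 0.10 for Pvalb 15 min, 0.77 ± 0.08 for Pvalb 60 min, 1.59 ± 0.14 for Sst 15 min and 1.30 ± 0.17 for Sst 60 min. The edgeR adjusted p for Psmb4 ran from 2.93e-10 in the Pvalb 60 min table to 2.87e-06 in the Sst 60 min table.

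Among the catalytic subunits, Psmb5 ranged more widely over lines. It had 184, 264 and 364 CPM (lowest, median, highest) in purified and 78.2, 129 and 156.5 CPM in lysate RNA of the Camk2a 60 min table, with no overlap, and a log2 fold change of 1.43 ± 0.12 (edgeR adjusted p = 6.42e-10). In the Pvalb 60 min table Psmb5 had 80.7, 128 and 270.4 CPM in purified and 95.8, 136 and 168 CPM in lysate RNA, which overlap, and a log2 fold change of 0.36 ± 0.10 (edgeR adjusted p = 0.0038). That fold change averages over conditions. Among home cage libraries alone, Psmb5 CPM there were lower in purified than in lysate RNA, with no overlap (values with the shock response further on). Psmb6 and Psmb7 changed by 1.14 ± 0.10 and 0.88 ± 0.10 in the Camk2a 60 min table and by 0.54 ± 0.09 and 1.01 ± 0.07 in the Pvalb 60 min table.

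The alpha ring was mostly higher in 5 tables, with 6 higher and 1 lower of 8 in Camk2a 15 min, 5 and 1 in Camk2a 60 min, 7 and 0 in each of Pvalb 15 min, Pvalb 60 min and Sst 15 min, and 1 higher and 3 lower in Sst 60 min. Its median log2 fold change in Camk2a 60 min was 0.40, against 1.14 for the beta ring, and with library totals 3 alpha-ring genes were higher and 1 lower there. Core genes together, both rings counted, gave 13 higher and 1 lower in Camk2a 15 min, 12 and 1 in Camk2a 60 min, 14 and 0 in each of Pvalb 15 min, Pvalb 60 min and Sst 15 min, and 8 higher and 3 lower in Sst 60 min, of 15 each. The 1 lower alpha-ring and core call in each Camk2a table was Psma8, which was near 0. Psma8 was also among the higher calls in Pvalb 60 min. Cap genes passed less uniformly, with 7 higher and 2 lower, 9 and 1, 6 and 2, 10 and 2, 13 and 0, and 8 and 5 of 17 in the same order. The cap split turned with the scaling: with library totals 3 cap genes were higher and 5 lower in Camk2a 15 min, 3 and 6 in Camk2a 60 min, 2 and 7 in Pvalb 15 min, 4 and 6 in Pvalb 60 min, 2 and 1 in Sst 15 min, and 7 and 5 in Sst 60 min, while core genes gave 12 and 1, 10 and 1, 11 and 0, 12 and 0, 13 and 0, and 8 and 3 of 15. With TMM scaling the median log2 fold changes were 0.97, 0.78, 0.69, 0.77, 1.13 and 0.24 for core genes and 0.31, 0.26, 0.11, 0.29, 0.48 and 0.27 for cap genes. The ATPase Psmc5 was higher in purified RNA in all 6 tables, by 0.47 ± 0.07 in Pvalb 60 min to 0.88 ± 0.12 in Sst 15 min. The base scaffold Psmd2 went the other way in the Camk2a and Pvalb tables, with log2 fold changes of -0.38 and -0.33 for Camk2a and -0.56 and -0.51 for Pvalb at 15 and 60 min. The ubiquitin receptor Psmd4 was higher in Camk2a 15 min, Camk2a 60 min, Pvalb 15 min and both Sst tables, by 0.34 to 1.17, and did not pass in Pvalb 60 min (0.19 ± 0.11, edgeR adjusted p = 0.127). With library totals Psmd4 did not pass in Pvalb 15 min either (0.09, edgeR adjusted p = 0.461).

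Assembly chaperones split. Averaged over conditions, Psmg1 and Psmg3, which help to build the core, were higher in purified RNA in all 6 tables under both scalings. Psmg1 changed by 0.59 ± 0.12 in Sst 60 min to 1.08 ± 0.09 in Pvalb 60 min, and Psmg3 by 0.68 ± 0.12 in Pvalb 60 min to 1.31 ± 0.23 in Sst 60 min. Among home cage libraries alone of Pvalb 60 min, Psmg3 CPM overlapped between purified and lysate RNA (values with the shock response further on). Psmd5, a chaperone of the base and no part of the finished proteasome, was the only member lower in all 6 tables with TMM scaling; with library totals Psme3 was as well. In the Camk2a 60 min table Psmd5 had 19.3, 34.9 and 53.5 CPM in purified and 64.2, 86.3 and 97.2 CPM in lysate RNA (lowest, median, highest), with no overlap. Its log2 fold changes were -0.999 ± 0.17 and -0.99 ± 0.12 for Camk2a, -0.79 ± 0.16 and -0.58 ± 0.09 for Pvalb, and -0.47 ± 0.10 and -0.90 ± 0.10 for Sst at 15 and 60 min, with edgeR adjusted p from 3.97e-07 to 0.000434.

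The activators also split. Psme1 and Psme2, which form the same ring and are known to be induced by interferon, were mostly higher in purified RNA: Psme2 in all 6 tables, by 0.35 ± 0.07 in Pvalb 60 min to 1.16 ± 0.15 in Sst 15 min, and Psme1 in 5, with 0.25 ± 0.14 in Pvalb 15 min (edgeR adjusted p = 0.145). With library totals Psme2 did not pass in the 2 Pvalb tables, and Psme1 passed in Camk2a 15 min and the 2 Sst tables. Psme3, which forms a nuclear activator, was lower in Camk2a 60 min (-0.36 ± 0.09, edgeR adjusted p = 0.000909) and Sst 60 min (-0.35 ± 0.10, edgeR adjusted p = 0.00333). Psme4, another nuclear activator, was lower in Camk2a 15 min (-0.86 ± 0.27, edgeR adjusted p = 0.0112), Camk2a 60 min (-0.80 ± 0.17, edgeR adjusted p = 0.000433) and Sst 60 min (-0.83 ± 0.22, edgeR adjusted p = 0.00262). The regulator Psmf1 passed in Sst 60 min only, at 0.31 ± 0.11 (edgeR adjusted p = 0.0253), while with library totals it missed there (edgeR adjusted p = 0.0716) and was lower in both Pvalb tables and Sst 15 min.

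The immunoproteasome gene Psmb10 was higher in purified RNA in all 6 tables. It averaged 116.5 ± 52.4 CPM in purified and 45.9 ± 7.22 CPM in lysate RNA of the Sst 15 min table (SD, n = 12 each), 143 ± 39.9 CPM in purified (n = 13) and 63.7 ± 17.1 CPM in lysate RNA (n = 12) of the Pvalb 15 min table, and 38.8 ± 21.6 CPM in purified and 29.1 ± 10.4 CPM in lysate RNA of the Camk2a 15 min table (n = 10 each). Log2 fold changes were 0.64 ± 0.21 and 1.10 ± 0.14 for Camk2a, 1.39 ± 0.15 and 1.22 ± 0.12 for Pvalb, and 1.73 ± 0.21 and 1.82 ± 0.23 for Sst at 15 and 60 min. In Camk2a 15 min the call for Psmb10 was lost with library totals (0.29, edgeR adjusted p = 0.272) and with GC and length offsets (0.38, edgeR adjusted p = 0.0769). Psmb10 is known to be strong in immune cells. The summed CPM of 6 microglial markers ran from 27.6 to 3709 CPM in purified and 334 to 590 CPM in lysate RNA of Sst 15 min. In Sst 60 min it ran from 101 to 2886 CPM in purified and 221 to 505 CPM in lysate RNA. It was 14.0 to 31.2 CPM in purified and 208 to 306 CPM in lysate RNA of Camk2a 15 min, and 11.4 to 39.3 and 305 to 497 CPM of Camk2a 60 min. In Pvalb it was 23.0 to 263 CPM in purified and 312 to 437 CPM in lysate RNA at 15 min, and 44.5 to 121 and 321 to 466 CPM at 60 min. The part of those cells in the Sst values was not tested.

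In all, 12 members were higher in every table in which they were tested: Psmb1 to Psmb7, Psmb10, Psmc5, Psme2, Psmg1 and Psmg3. With library totals 7 were: Psmb1, Psmb4, Psmb6, Psmb7, Psmc5, Psmg1 and Psmg3. Another 12 members were higher in at least 1 table and lower in at least 1 other, and every member passed in at least 1 table. The matching shares of all genes over the tables were not counted. Since calls were common among all genes in each table, these counts only describe the members. Of 29 other genes of the ubiquitin and proteasome pathway, 11 were higher and 6 lower in Camk2a 15 min, 13 and 6 in Camk2a 60 min, 12 and 9 in Pvalb 15 min, 14 and 9 in Pvalb 60 min, 15 and 6 in Sst 15 min, and 10 and 12 in Sst 60 min. These are the same fits as for the members, so the shares of all genes given there apply, and a call by itself was common. Pomp, the factor that matures the core, was higher by 1.54 ± 0.09 in Camk2a 15 min, 1.29 ± 0.13 in Camk2a 60 min, 1.16 ± 0.14 in Pvalb 15 min, 1.30 ± 0.07 in Pvalb 60 min, 1.803 ± 0.15 in Sst 15 min and 0.85 ± 0.13 in Sst 60 min on the log2 scale (edgeR adjusted p from 2.06e-16 to 1.14e-05).

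The Sst 60 min table stood apart, and there the result ran with GC content. Across 44 members the log2 fold change of purified over lysate RNA correlated with the GC content of the longest transcript with Pearson's r = 0.69, against 0.73 over all genes; the points share libraries, and genes are not independent replicates. In the other 5 tables r over members lay between -0.26 and 0.43. The ATPase gene Psmc6 had 32.1, 55.3 and 117 CPM in purified and 93.3, 211 and 272 CPM in lysate RNA of that table (lowest, median, highest), and a log2 fold change of -1.51 ± 0.26, which became 0.16 (edgeR adjusted p = 0.224) with GC and length offsets. Psmd14 changed by -1.11 ± 0.22, and by -0.09 (edgeR adjusted p = 0.476) with offsets. With offsets 25 members were higher and 5 lower, when 24.2% and 18% of all genes were. Of the 8 alpha-ring genes 3 were then higher and 0 lower, against 1 higher and 3 lower without offsets. Without the low-score libraries 24 members were higher and 3 lower, when 19.5% and 21.4% of all genes were, and with home cage libraries alone 12 were higher and 1 lower, when 9.11% and 11.8% were.

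Enrichment differed between lines for part of the members. The tests below compare purified over lysate, averaged over shock, box and home cage, between lines in 1 set. Line cannot be told apart from table, since each table holds 1 line. In Pvalb minus Camk2a at 60 min 13 members were higher and 13 lower of 47, when 49.5% of all genes passed, 32.3% higher and 17.2% lower. At 15 min 7 were higher and 13 lower of 46, when 34.2% passed, 19.1% higher and 15.1% lower. With GC and length offsets 8 were higher and 15 lower at 60 min, when 33.1% and 17.3% of all genes were, and 6 higher and 15 lower at 15 min, when 19.8% and 15.5% were. The lid subunit Psmd12 was higher at both times. It averaged 188 ± 28.5 CPM in purified and 133 ± 6.58 CPM in lysate RNA of Pvalb 60 min (n = 16 each), and 107 ± 19.2 CPM in purified and 136 ± 19.7 CPM in lysate RNA of Camk2a 60 min (n = 12 each). The difference between lines for Psmd12 was 0.89 ± 0.17 at 60 min (edgeR adjusted p = 1.1e-05) and 0.79 ± 0.16 at 15 min (edgeR adjusted p = 9.15e-05) on the log2 scale. Psmb5 was lower by 1.02 ± 0.19 at 60 min (edgeR adjusted p = 6.93e-06): its enrichment was 0.36 in Pvalb and 1.43 in Camk2a. These values mix conditions, and Psmb5 in purified Pvalb RNA differed between shock and home cage at 60 min.

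In Sst minus Camk2a, 8 members were higher and 0 lower at 15 min, when 22.6% of all genes passed, 15.1% higher and 7.49% lower. At 60 min 4 were higher and 18 lower, when 52.8% passed, 33.1% higher and 19.6% lower. Psmb10 was higher in Sst at both times, by 1.04 ± 0.28 at 15 min (edgeR adjusted p = 0.00463) and 0.63 ± 0.22 at 60 min (edgeR adjusted p = 0.014; 0.10 with GC and length offsets). In Pvalb minus Sst, 0 members were higher and 8 lower at 15 min, when 7.24% of all genes passed, 2.27% higher and 4.97% lower. They were led by the activator genes Psme2 at -0.72 ± 0.17 (edgeR adjusted p = 0.00512) and Psme1 at -0.79. With a replicate block 1 of these 8 passed, Psme1 (edgeR adjusted p = 0.0203), when 3.5% of all genes did, and Psme2 did not (edgeR adjusted p = 0.0787); in Sst minus Camk2a at 15 min 4 of the 8 passed, when 18.8% of all genes did. At 60 min 23 were higher and 17 lower, when 60.5% passed, 29.9% higher and 30.6% lower. Without the low-score Sst libraries the counts at 15 min became 5 in Sst minus Camk2a, when 17.3% of all genes passed, and 14 in Pvalb minus Sst, when 11.7% did. The differences between lines at 60 min also ran with GC content: across 44 members they correlated with it at r = -0.69 in Pvalb minus Camk2a, 0.59 in Sst minus Camk2a and -0.73 in Pvalb minus Sst, against -0.16, 0.29 and -0.54 over all genes. With offsets these were -0.37, -0.51 and 0.17 over members, and the counts at 60 min became 4 higher and 23 lower in Sst minus Camk2a, when 29.7% and 18% of all genes were, and 21 higher and 12 lower in Pvalb minus Sst, when 23.1% and 20.4% were. The part of immune and glial RNA in those differences was not tested.

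Members differed between shock and home cage mice in purified Pvalb RNA of the 60 min set. There 15 members were higher and 10 lower after shock than in the home cage, of 47 tested (edgeR adjusted p under 0.05, n = 6 each), when 35% of all genes passed, 19.7% higher and 15.3% lower. The median log2 fold change was 0.16 over members and -0.06 over all genes. By role, the beta ring gave 4 higher and 0 lower of 7, the alpha ring 1 higher and 5 lower of 8, the cap 7 higher and 4 lower of 17, the chaperones 2 higher and 0 lower of 7 and the activator group 0 higher and 1 lower of 6. With GC and length offsets the split became 16 higher and 1 lower, when 8.9% of all genes were higher and 3.5% lower.

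**Figure D3:**
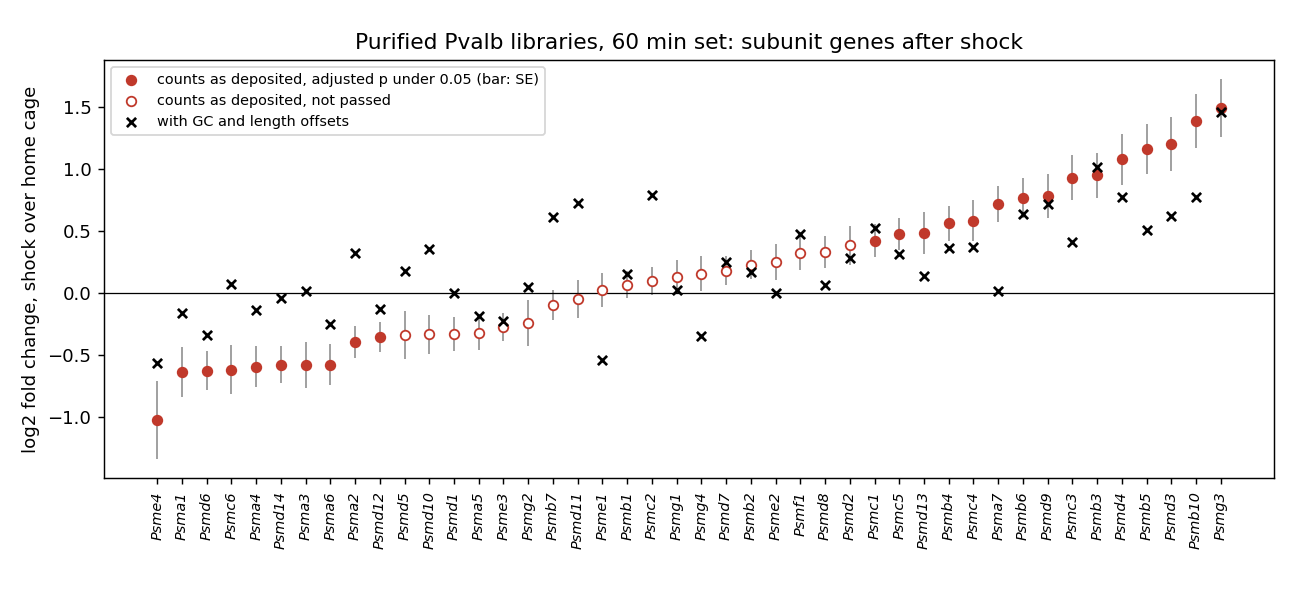
Log2 fold change of shock over home cage in purified Pvalb RNA of the 60 min set for 44 members ordered by value (circles, filled where the adjusted p is under 0.05, bars for SE) and the same with GC and length offsets (crosses). From Psme4 at -1.02 to Psmg3 at 1.495 the circles cross 0, while most crosses of the low members lie nearer 0.

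Of the 6 members higher after shock with the smallest p, Psmg3, the core chaperone, had 23.8, 48.0 and 63.5 CPM (lowest, median, highest) in shock and 11.99, 14.1 and 21.4 CPM in home cage libraries, with no overlap, and 19.3 to 35.6 CPM in 4 box libraries. Its log2 fold change was 1.495 ± 0.23 (edgeR adjusted p = 0.000594). In lysates Psmg3 had 14.4 to 25.2 CPM in shock and 14.7 to 23.8 CPM in home cage libraries.

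Psmb10 had 101, 188 and 207 CPM in shock and 41.9, 60.2 and 83.5 CPM in home cage libraries, with no overlap, and rose by 1.39 ± 0.22 on the log2 scale (edgeR adjusted p = 0.000594). Psmb5 had 132, 251 and 270.4 CPM in shock and 80.7, 94.6 and 119 CPM in home cage libraries, again with no overlap, and rose by 1.16 ± 0.20 (edgeR adjusted p = 0.000665). In the 4 box libraries Psmb5 ran from 94.6 to 192.5 CPM, between the groups and overlapping both. Its lysate values, 95.8 to 168 CPM in shock and 125 to 162 CPM in home cage mice, overlapped throughout.

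The lid subunit Psmd3 had 86.6, 161 and 196 CPM in shock and 46.01, 65.0 and 78.4 CPM in home cage libraries (1.201 ± 0.22, edgeR adjusted p = 0.000772). The structural beta subunit Psmb3 had 122, 219 and 229 CPM in shock and 78.2, 99.1 and 109 CPM in home cage libraries (0.95 ± 0.18, edgeR adjusted p = 0.000947). The ubiquitin receptor Psmd4 had 132, 299.7 and 317 CPM in shock and 97.0, 122 and 132 CPM in home cage libraries (1.08 ± 0.21, edgeR adjusted p = 0.000999). None of these overlapped, though for Psmd4 the lowest shock value, 131.8 CPM, and the highest home cage value, 131.7 CPM, nearly met. The other 9 that rose were Psmc3, Psmd9, Psmb6, Psma7, Psmc4, Psmb4, Psmd13, Psmc5 and Psmc1, by 0.93 to 0.42.

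Among members lower after shock, the lid subunit Psmd6 had 106, 138 and 187 CPM in shock and 203, 217 and 244 CPM in home cage libraries, with no overlap (-0.62 ± 0.16, edgeR adjusted p = 0.00583). Psmd14 had 120.0, 153 and 234 CPM in shock and 224, 246 and 264 CPM in home cage libraries, which overlap (-0.58 ± 0.15, edgeR adjusted p = 0.00649). The alpha-ring genes Psma4 (-0.59 ± 0.16, edgeR adjusted p = 0.00978), Psma6 (-0.58 ± 0.17, edgeR adjusted p = 0.0125) and Psma1 (-0.63 ± 0.20, edgeR adjusted p = 0.0206) fell too. Psma1 ran from 131 to 331 CPM in shock and from 258 to 329 CPM in home cage libraries. Psme4 had 5, 10.3 and 20.3 CPM in shock and 15.6, 20.6 and 36.7 CPM in home cage libraries (-1.02 ± 0.32, edgeR adjusted p = 0.0185). The remaining 4 were Psma2, Psma3, Psmc6 and Psmd12, at -0.35 to -0.62. Over all members, 13 of 47 had groups that did not overlap, 10 higher and 3 lower, when 10.6% of all genes did, 7.9% higher and 2.67% lower.

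**Figure D4:**
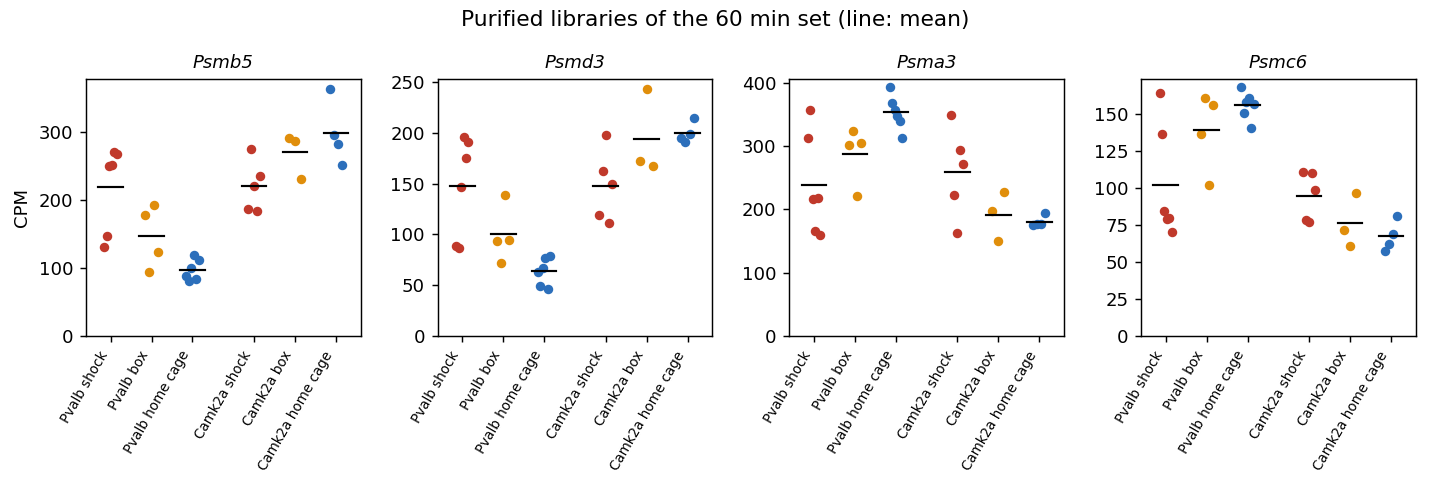
CPM of Psmb5, Psmd3, Psma3 and Psmc6 in each purified library of the 60 min sets (points, with lines at the means), shock left of box and box left of home cage, Pvalb left of Camk2a. In Pvalb, Psmb5 and Psmd3 shock libraries lie above all home cage libraries, while Psma3 and Psmc6 have 4 shock libraries below them and 2 among or near them; in Camk2a the group means stand in the opposite order.

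The shock libraries fell into 2 kinds, as the plot of CPM by library shows. For Psmc6 the shock replicates 1 and 2 had 164 and 136 CPM, against 140.0 to 168 CPM in home cage libraries, and the other 4 had 70.2 to 84.4 CPM. Psma3 had 313 and 358 CPM in shock replicates 1 and 2, 160 to 218 CPM in the other 4, and 313 to 394 CPM in home cage libraries. Psmb5 had 132 and 147 CPM in shock replicates 1 and 2 and 250 to 270.4 CPM in the other 4. Psma3, Psmc6 and Psmd3 were chosen for that plot after their values were seen.

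These differences ran with base composition. For each library a slope on GC content was fitted to TMM-scaled log2 CPM, centred per gene, over tested genes other than the members. The slope was -0.08 and -0.10 per 10 percentage points in shock replicates 1 and 2, 0.59 to 0.77 in the other 4 shock libraries, and -0.54 to -0.30 in the 6 home cage libraries. Across 44 members the log2 fold change of shock over home cage correlated with transcript GC content with r = 0.72, against 0.49 over all genes and 0.07 over members with the offsets. In the offset fit Psmb5 changed by 0.51, Psmb10 by 0.77, Psmd3 by 0.62, Psmd4 by 0.77, Psmb3 by 1.02 and Psmg3 by 1.46, and all 6 still passed. Of the lower members, Psmc6 became 0.07, Psma3 0.02, Psmd14 -0.04, Psmd6 -0.34 (edgeR adjusted p = 0.0583) and Psme4 -0.56 (edgeR adjusted p = 0.176), and the 1 lower call was Psme1 at -0.54 (edgeR adjusted p = 0.0182). The part of GC content in the deposited-count result was not tested beyond these offsets.

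**Figure D5:**
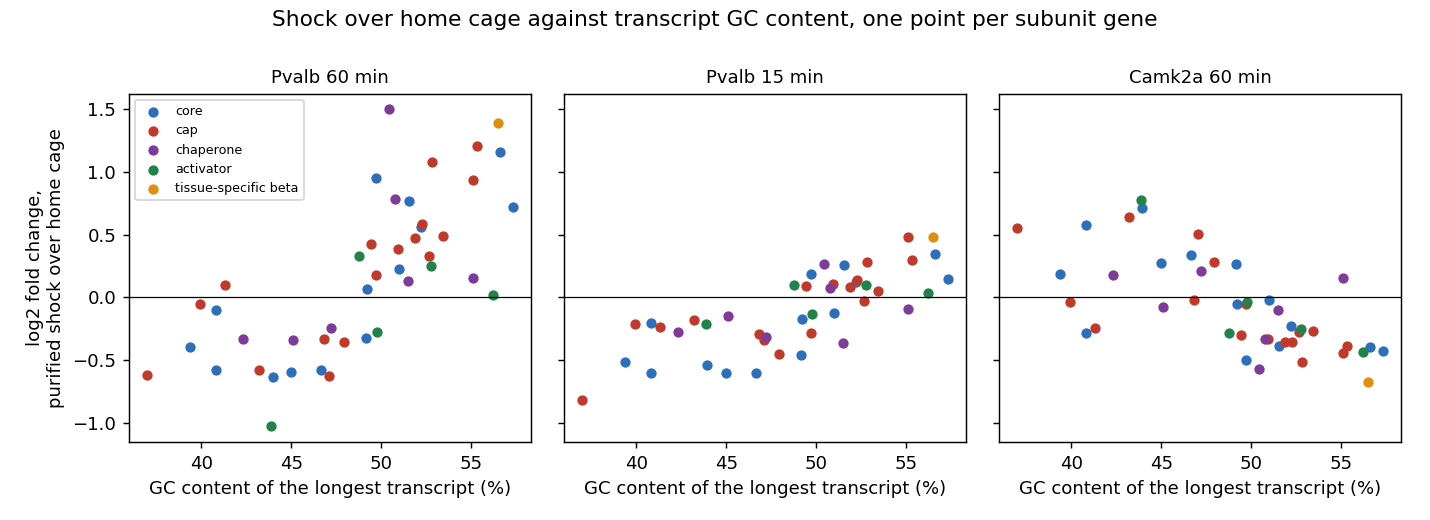
Log2 fold change of shock over home cage in purified RNA against the GC content of the longest transcript, 1 point for each of 44 members coloured by role, in the Pvalb 60 min, Pvalb 15 min and Camk2a 60 min sets. The points rise with GC content in both Pvalb sets (r = 0.72 and 0.75) and fall in the Camk2a set (r = -0.66).

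The plot of fold change against GC content shows that the same trend, at a smaller size, lay in the Pvalb 15 min set, where no member passed, and the opposite trend in the Camk2a 60 min set. In the sets not plotted r over members was 0.68 in Sst 15 min, 0.47 in Camk2a 15 min and 0.16 in Sst 60 min. A positive trend was thus not confined to the Pvalb line, to shock or to purified RNA. For purified box over home cage r was 0.64 in Pvalb 60 min, 0.54 in Sst 15 min and 0.47 in Sst 60 min. It was -0.01 in Pvalb 15 min, -0.42 in Camk2a 15 min and -0.49 in Camk2a 60 min. In lysates at 15 min r was 0.67 for shock and 0.59 for box over home cage, and at 60 min 0.02 and -0.13. Mean GC slopes were 0.29 ± 0.22 in shock (n = 5) and -0.17 ± 0.24 in home cage libraries (n = 4) of Pvalb 15 min, and -0.28 ± 0.25 in shock (n = 5) and 0.24 ± 0.11 in home cage libraries (n = 4) of Camk2a 60 min (SD).

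For the marker lists printed here, the summed levels of shock and home cage libraries overlapped in the Pvalb 60 min set, without equal ranges. Both ends of the range were higher in shock for parvalbumin and pyramidal markers, and lower for general GABA markers. Sums for astrocytes, oligodendrocytes and endothelial cells are not given here, and whether cell composition differed was not tested. All 5 parvalbumin markers were above 0 in every library of both groups, with summed levels of 1439 to 1762 CPM in shock and 1225 to 1664 CPM in home cage libraries. Of the 4 general GABA markers all were above 0, with 2599 to 4892 CPM in shock and 3824 to 5344 CPM in home cage libraries. All 6 microglial markers were above 0, with 44.5 to 121 CPM in shock and 46.5 to 66.2 CPM in home cage libraries, and all 6 pyramidal markers, with 1021 to 1630 CPM in shock and 759 to 1206 CPM in home cage libraries. With the own-class score as a covariate 13 members were higher and 11 lower, when 15.5% and 13.5% of all genes were.

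No member passed between box mice of the Pvalb 60 min set and either other group. For box over home cage and for shock over box, 0 members passed, and 0% of all genes did; at an unadjusted p under 0.05 there were 11 and 17 members, when 11.3% and 20.5% of all genes were, and DESeq2 called 0 and 1, when it called 0.235% and 6.27% of all genes. The member with the smallest p was Psmg3 for box over home cage (0.79 ± 0.25, edgeR adjusted p = 0.366) and Psmb4 for shock over box (0.48 ± 0.16, edgeR adjusted p = 0.171). Without shock replicate 2, 7 members and 8.84% of all genes passed for shock over box. With all libraries, the change seen after shock was not shown to differ from that after the new context alone.

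The Pvalb 60 min response differed between purified RNA and lysates for part of the members. In a test of the difference of the 2 responses 13 members were higher and 5 lower, when 20.4% of all genes passed, 13% higher and 7.44% lower. Psmg3 differed by 1.46 ± 0.28 (edgeR adjusted p = 0.00231), Psmb10 by 1.34 ± 0.27 (edgeR adjusted p = 0.00249) and Psmb5 by 1.10 ± 0.24 (edgeR adjusted p = 0.00351), and Psmd14 by -0.70 ± 0.21 (edgeR adjusted p = 0.0212). With GC and length offsets 7 were higher and 0 lower, when 3.24% and 0.874% of all genes were. With a replicate block 0 members and 0% of all genes passed; the replicate numbers were not shown to pair these samples. Leaving out 1 purified library at a time gave 11 members, without shock replicate 4 (13.9% of all genes), to 23, without shock replicate 2 (30.6%).

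It also differed from the Camk2a response. The difference of the shock responses, Pvalb minus Camk2a at 60 min in purified RNA, passed for 19 members higher and 10 lower, when 37.9% of all genes passed, 21.3% higher and 16.6% lower. Psmb10 differed by 2.12 ± 0.31 (edgeR adjusted p = 3.4e-05): its shock response was 1.39 in Pvalb and -0.67 in Camk2a. Psmg3 differed by 2.13 ± 0.35, with responses of 1.495 in Pvalb and -0.57 in Camk2a. Psmd14 differed by -1.13 ± 0.24 (edgeR adjusted p = 0.000551), with responses of -0.58 in Pvalb and 0.64 in Camk2a. With GC and length offsets 18 were higher and 1 lower, when 10.8% and 5.14% of all genes were. The 60 minus 15 min difference in the Pvalb line passed for 0 members and for 0% of all genes (9 members and 9.2% of all genes at an unadjusted p under 0.05, 0 members and 1.43% by DESeq2), so the absence of calls at 15 min does not show that the times differ.

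In the Camk2a line itself no member passed. At 60 min, 0 of 46 members passed for shock over home cage, when 2.3% of all genes did (19 members and 24.9% of all genes at an unadjusted p under 0.05, and 12 members and 20.9% by DESeq2). The smallest p belonged to Psma1, with 265, 170, 136, 254 and 220 CPM in the 5 shock libraries and 117, 121, 128 and 165 CPM in the 4 home cage libraries, which overlap (0.71 ± 0.20, edgeR adjusted p = 0.0583). Without shock replicate 3, 9 members and 12.7% of all genes passed. At 15 min 0 members and 0% of all genes passed (7 members and 8.86% of all genes at an unadjusted p under 0.05, and 0 members and 0.576% by DESeq2), and the smallest p was that of Psmd3 at 0.81 ± 0.26 (edgeR adjusted p = 0.503). In the Pvalb 15 min set 0 members and 0% of all genes passed (7 members and 15.6% of all genes at an unadjusted p under 0.05, and 0 members and 3.36% by DESeq2), with Psma4 at -0.60 ± 0.20 (edgeR adjusted p = 0.24).

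In the Sst line, calls came only in shock over box at 60 min, where 0 members were higher and 6 lower, when 8.18% of all genes passed and 4.56% were lower. With GC and length offsets 12 members passed, all lower, when 8.34% of all genes were lower, and DESeq2 called 15, all lower, when it called 16.4% of all genes. The median log2 fold change was -0.46 over members and 0.07 over all genes. Psmb10 had 94.6, 53.8, 106 and 98.5 CPM in the 4 shock and 171, 146, 155 and 131 CPM in the 4 box libraries, with no overlap (-0.92 ± 0.21, edgeR adjusted p = 0.025). Psmb1, a structural beta subunit, had 331, 256, 344 and 275 CPM in shock and 375, 395, 385 and 419 CPM in box libraries, with no overlap (-0.52 ± 0.13, edgeR adjusted p = 0.0331). Psme1 (-0.69 ± 0.18, edgeR adjusted p = 0.034), Psmb2 (-0.46 ± 0.13, edgeR adjusted p = 0.044), the ATPase Psmc2 (-0.70 ± 0.20, edgeR adjusted p = 0.0447) and Psmb7 (-0.73 ± 0.20, edgeR adjusted p = 0.0449) were the others. In all, 7 of 47 members had groups that did not overlap, all lower, when 19% of all genes did and 6.39% were lower.

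Cell markers moved with this Sst result. The 4 shock libraries scored -3.51 to -2.20 for their own class and the 4 box libraries -0.97 to 2.23. All 6 oligodendrocyte markers were above 0 in both groups, with summed levels of 6938 to 10990 CPM in shock and 2753 to 4642 CPM in box libraries. All 6 microglial markers were above 0, with 313 to 471 CPM in shock and 102 to 2886 CPM in box libraries. With the own-class score as a covariate 0 members passed, when 1.9% of all genes did, and with 1 library left out at a time the count ran from 0 to 7, the highest without shock replicate 1 (7.17% of all genes). The comparison could not be made without the low-score libraries, since all 4 shock libraries are among them.

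For shock over home cage in the Sst line, 0 members passed at 60 min, when 4.49% of all genes did (18 members, all lower, and 21.5% of all genes at an unadjusted p under 0.05, and 12 members and 13.6% by DESeq2; 7 members, all lower, and 10.8% with GC and length offsets), with Psmb7 at -0.71 ± 0.20 (edgeR adjusted p = 0.0551). At 15 min 0 members passed, when 1.21% of all genes did (11 members and 21.8% of all genes at an unadjusted p under 0.05, and 4 members and 11.6% by DESeq2), with Psmd12 at -0.82 ± 0.24 (edgeR adjusted p = 0.0914). Of the 29 other pathway genes, the core maturation factor Pomp was lower after shock at 60 min, at -0.97 ± 0.16 against box (edgeR adjusted p = 0.00971) and at -0.81 ± 0.16 against home cage (edgeR adjusted p = 0.0165). In the Pvalb 60 min set 7 of these genes were higher and 9 lower after shock than in the home cage, with the ubiquitin receptor Adrm1 at 1.22 ± 0.22 (edgeR adjusted p = 0.000805). Calls were common among all genes in that fit, with the shares given above beside the members' counts.

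In whole lysates no member passed for shock or box in either set. One fit per time set took the lysates of all 3 lines, with a term for line. For shock over home cage 0 members passed at 15 min, when 0.128% of all genes did, and 0 at 60 min, when 0% did. At an unadjusted p under 0.05 there were 1 and 0 members at 15 and 60 min, when 5.75% and 3.29% of all genes were, and DESeq2 called 0 members at both, and 0.363% and 0.11% of all genes. For box over home cage 0.0128% of all genes passed at 15 min and 0% at 60 min, and for shock over box 0% did at both times, with 0 members in each by edgeR and by DESeq2.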

How the data were processed

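PolyA RNA was isolated with RNeasy Mini columns and made into Nextera XT libraries, per the labels' protocols; reads of such libraries carry no strand. The authors deposited raw counts of reads for each gene symbol. A table holds 1 line at 1 time, purified and lysate together, and there are 6. The submitters' processing notes list STAR 2.7.7a, featureCounts, DESeq2 and the build GRCm38, with no role or order; the annotation behind the counts and the treatment of reads that fit several genes are not given in the sources used here. Reads of overlapping genes cannot be told apart; exons of 12 of the 47 members overlap another annotated gene, among them Psmd9 (Gm26745), Psmb7 (Nek6), Psmd13 (Sirt3) and Psmc3 (Slc39a13).

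Of 153 labelled samples, 151 columns were used and 0 were left unused. Names of 3 columns matched a group but no single sample, and they entered as replicates without a number: 1 Pvalb 15 min lysate and 2 Pvalb 60 min purified home cage libraries. The 2 Camk2a 60 min box samples numbered 4 matched no column and were not analysed here. No pair of libraries in a group agreed within sampling noise (lowest reduced chi-square 20.07).

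The tests used edgeR 4.0.16 under R 4.3.3 (filterByExpr, TMM, robust glmQLFit). P-values were adjusted by Benjamini-Hochberg over every gene tested, and a gene passed at an adjusted p under 0.05. SEs come from dividing a fold change by the root of its F value. Printed CPM are computed on all listed counts, without TMM factors, while the GC slopes use TMM-scaled CPM. Replicate numbers paired the purified shock and home cage libraries of Sst 60 min (4 pairs, r of deviations from 0.212), where 0 members passed with or without the block. Replicates are separate samples of a group, and the p-values measure only the spread between them. Alternatives were DESeq2 1.42.0, DESeq2 size factors, no filter on low counts, GC and length offsets (natural splines with 4 degrees of freedom, fitted per library over all genes), a replicate block, the own-class score as a covariate, home cage libraries alone, each line left out of the lysate fits and each library left out of the purified fits. Library totals in place of TMM, and fits without low-score or very deep Sst libraries, were added after seeing the data. The GC content and exon lengths are those of GENCODE M21 on GRCm38. The fits were tested on simulated data. Members, roles, pathway and marker lists were chosen with earlier results of these data known. Every member could be named with its level; full statistics go to up to 6 higher and 6 lower members per contrast by smallest p, or else to the 1 with the smallest p, and to the catalytic, receptor and activator genes.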

Additional observations from a re-analysis of the deposited data

Results flagged for a closer look

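Single libraries stood apart from the rest of their group in 5 of 90 group values tested for an outlying library (summed member CPM and core-to-cap ratio in 27 groups of 4 or more libraries, and 36 group values of single members with full statistics), about the share that chance gives, 1 in 20. The summed member level was 6814 CPM in Camk2a 15 min lysate shock replicate 2, 8846 CPM in Camk2a 60 min purified home cage replicate 1 and 6358 CPM in Pvalb 15 min purified home cage replicate 4. The core-to-cap ratio was 0.658 in Pvalb 60 min lysate box replicate 2 and 1.14 in Sst 15 min purified shock replicate 5.

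Tests of a difference between effects passed for members as follows. Purified over lysate differed between Pvalb and Camk2a for 26 members at 60 min (49.5% of all genes) and 20 at 15 min (34.2%). It differed between Sst and Camk2a for 22 members at 60 min (52.8%) and 8 at 15 min (22.6%), and between Pvalb and Sst for 40 members at 60 min (60.5%) and 8 at 15 min (7.24%). The shock response at 60 min differed for 18 members between purified and lysate RNA of the Pvalb line (20.4%), and for 29 members between purified Pvalb and purified Camk2a RNA (37.9%). Of 47 members at 60 min and 46 at 15 min, several of these counts lie near the share over all genes.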

How the results depend on the processing

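Replicate numbers pair samples where every pair's deviations correlate above 0.1. Between purified and lysate libraries with the same number 42 of 72 pairs did (r from -0.698 to 0.665), including every pair of Camk2a 15 min shock and home cage, Camk2a 60 min box, and Pvalb 15 min box and home cage, but in no table every pair; over conditions 22 of 64 purified and 33 of 63 lysate pairs did. Shares in brackets are those of all genes in the same fit. With a replicate block, the shock response of purified minus lysate Pvalb RNA at 60 min passed for 0 members (0%), enrichment in Sst minus Camk2a at 15 min for 4 (18.8%), and enrichment in Pvalb minus Sst at 15 min for 1 (3.5%); of the 25 members in shock over home cage in purified Pvalb 60 min, 21 also passed with the block (23.1%). GC and length offsets gave 7 members for the Pvalb purified minus lysate response (4.11%), 19 for Pvalb minus Camk2a (15.9%), 7 for Sst 60 min shock over home cage (10.8%) and 12 for Sst 60 min shock over box (15.1%). Signs were followed only for the called members with the smallest p in each comparison. Among those, offsets turned Psma2 in Sst minus Camk2a (0.17) and Pvalb minus Sst (-0.32) at 60 min, and Psmc6 in Sst 60 min purified over lysate (0.16). Other members turned too, such as Psma3 in Sst 60 min purified over lysate. It was called lower there at -0.92, while its lowest value with offsets in any table was 0.41. With home cage libraries alone, purified over lysate passed for 13 members in Sst 60 min (20.9%), 17 in Pvalb 15 min (22.4%) and 23 in Camk2a 60 min (28.7%), and Psma8 in Camk2a 15 min turned to 0.15. The lower counts there go with fewer libraries. Without the 12 low-score purified Sst libraries, chosen after seeing the data, 5 members passed in Sst minus Camk2a (17.3%) and 14 in Pvalb minus Sst (11.7%) at 15 min. Without the 6 Sst 60 min libraries over 250000000 counts, also chosen after seeing the data, purified over lysate passed for 40 members (69.4%).

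DESeq2 called 12 members each in Sst 60 min (13.6%) and Camk2a 60 min (20.9%) shock over home cage, 15 in Sst 60 min shock over box (16.4%), 4 in Sst 15 min shock over home cage (11.6%), and 1 each in Pvalb 60 min shock over box (6.27%), Pvalb 15 min box over home cage (0.389%) and Pvalb 15 min shock over box (5.96%). DESeq2 size factors gave 1 in Sst 60 min shock over home cage (4.54%). Without a filter on low counts 3 passed in Sst 60 min shock over box (5.71%) and 1 in Camk2a 60 min shock over home cage (2.73%). The own-class covariate left 0 in Sst 60 min shock over box (1.9%). The causes were not tested. Leaving out 1 library at a time gave 0 to 7 members for Pvalb 60 min (8.84% at 7) and for Sst 60 min shock over box (7.17% at 7). It gave 0 to 9 for Camk2a 60 min shock over home cage (12.7% at 9) and 11 to 23 for the Pvalb purified minus lysate response (13.9% at 11, 30.6% at 23). For shock over home cage it gave 19 to 29 in Pvalb 60 min and 0 to 1 in Sst 60 min, and for Pvalb minus Camk2a 27 to 30. Shares of all genes are not given for these last ranges, which may move with the whole fit. In lysates every alternative run left 0 members.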
